A study of Homo sapiens with 18 samples.

Results

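The transcripts of 8 matrix metalloproteinase (MMP) genes and 2 of their tissue inhibitors (TIMP) were followed in 3 established lines of human head and neck squamous carcinoma whose level of the epithelial ETS transcription factor EHF had been raised or lowered. The genes are the collagenases MMP1 and MMP13, the gelatinases MMP2 and MMP9, the stromelysins MMP3 and MMP10, matrilysin MMP7, the membrane-type MMP14, and the inhibitors TIMP1 and TIMP2. They were chosen by symbol, and all 10 were found among the 23710 genes of each line's count table. In A253, a line from a submandibular salivary gland tumour, 3 libraries came from EHF overexpressing cells grown with doxycycline and 3 from control cells in regular medium. In SCC25, from a tongue carcinoma, 2 libraries came from EHF overexpressing cells with doxycycline and 2 from control cells in regular medium. In CAL27, also from a tongue carcinoma, 2 libraries of EHF knockdown hairpin sh 64, 2 of hairpin sh 65 and 2 of control cells were all from regular medium. The CAL27 counts name these control cells sh Control, and the sample titles say control cells only. The labels do not say whether each derived line is a clone or a pool, nor whether replicates came from cultures of their own, and the p-values can speak only for the variation among the libraries at hand. Doxycycline, which is itself known as an inhibitor of MMP enzyme activity, cannot be told apart from EHF overexpression here.

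MMPs are zinc-dependent enzymes, secreted or anchored in the membrane as inactive proenzymes, that together cut collagens, laminins, fibronectin and many cell surface proteins. TIMPs bind the active site of MMPs with equal numbers of molecules on each side, and TIMP2 also takes part in the activation of proMMP2 by MMP14 at the cell surface. In carcinomas of the mouth, MMP7, MMP10 and MMP13 are known to be made by the tumour cells themselves, while much of the MMP2 comes from fibroblasts. Transcript levels say nothing of proenzyme processing or activity.

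EHF itself was measured first. In A253 it reached 765, 711 and 633 CPM (counts relative to the scaled library total, so that libraries of different depth compare) in overexpressing cells, against 84.5, 91.4 and 83.2 CPM in control cells, an 8.13-fold rise. In SCC25 it stood at 860 and 892 CPM in overexpressing cells and at 461 and 420 CPM in control cells, a rise of 1.99-fold. In CAL27 it was 497 and 526 CPM with sh 64, 444 and 469 CPM with sh 65, and 962 and 992 CPM in control cells, which put it 1.91-fold lower with sh 64 and 2.14-fold lower with sh 65. Every library thus matched the direction of its label, and CAL27 control cells started with the most EHF. The libraries held 7068155 to 19962159 counts. The epithelial markers KRT5, KRT14, KRT6A, KRT17, EPCAM, CDH1 and TP63 were all detected in each library, and their summed level was 11386 to 12348 CPM in overexpressing and 13106 to 14122 CPM in control A253 cells.

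Of the 10 genes, MMP7 moved with EHF in all 3 lines, and MMP13 rose in every EHF-changed group, whether EHF had been raised or lowered. TIMP2 fell in overexpressing A253 cells and rose in overexpressing SCC25 cells. The other 7 genes passed the test in at most 2 of the 3 lines, and MMP9, MMP3 and MMP10 did not pass it against control in any line where they could be tested. Changes were called at an adjusted p under 0.05 in edgeR's quasi-likelihood test with Benjamini-Hochberg adjustment over all genes tested in a comparison, and every adjusted p below is of that kind unless another tool is named. In A253, 8 of the 10 genes had enough counts to be tested: 2 rose and 1 fell, where 7.97% of all 14503 tested genes were called. In SCC25, 9 were tested and 6 rose, where 23.9% of 14120 genes were called. In CAL27, 8 were tested: with both hairpins averaged 2 rose and 1 fell, where 18.8% of 13629 genes were called. For sh 64 alone 2 rose and 1 fell against a background of 15.7%, and for sh 65 alone 2 rose and 2 fell against 14.6%. The median log2 change of the tested members was 0.01 in A253, 0.27 in SCC25 and -0.03 in CAL27 with both hairpins averaged, beside medians of -0.00345, 0.00258 and 0.00252 over all genes tested in these lines.

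**Figure D1:**
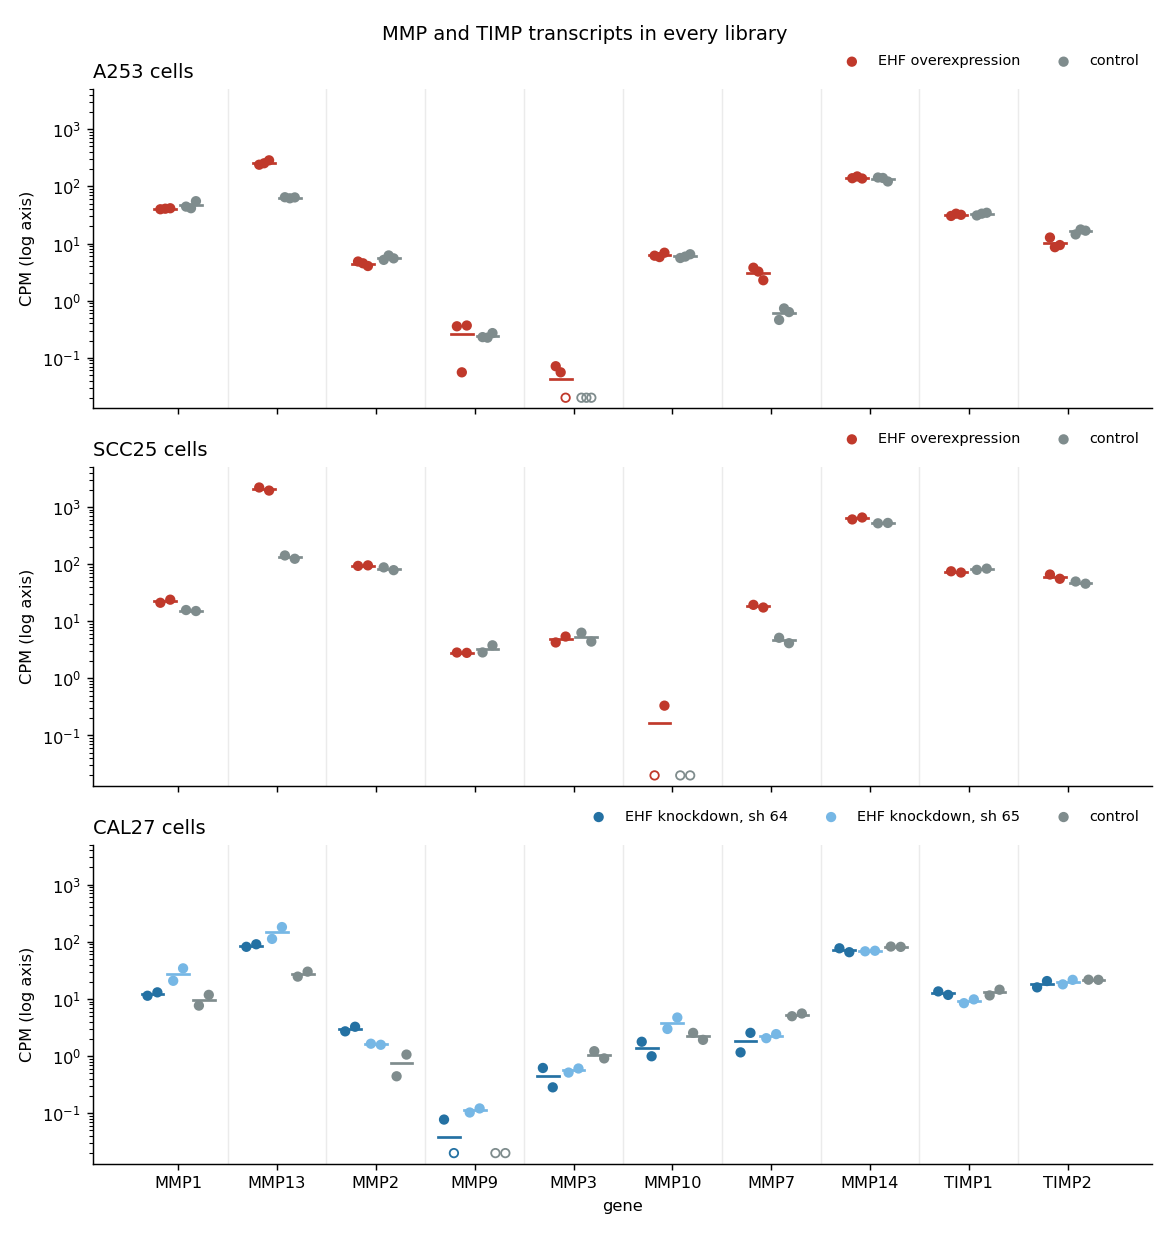
CPM of each of the 10 genes in every library of A253, SCC25 and CAL27 cells, on a log axis. Each point is a library, each bar the mean of its group, and open circles at the bottom are libraries with 0 counts. In all 3 lines MMP13 lies higher in the EHF-changed libraries than in control libraries without overlap, while MMP7 lies higher after EHF overexpression and lower after EHF knockdown.

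In control cells, levels were compared between genes per transcript length, as TPM (counts per base of transcript, scaled to a common total). MMP14, the membrane-anchored collagenase that activates proMMP2, led the order in all 3 lines, followed by TIMP1 and MMP13. MMP14 averaged 77.1 ± 8.81 TPM in A253 (SD, n = 3), 286 ± 7.79 in SCC25 and 44.4 ± 1.22 in CAL27 control cells (SD, n = 2 each). TIMP1 averaged 72.5 ± 4.20, 172 ± 0.554 and 27.1 ± 3.94 TPM in the same order of lines, and in A253 its libraries overlapped those of MMP14. MMP13 averaged 47.1 ± 1.06 TPM in A253, where it overlapped MMP1 at 45.9 ± 5.41 TPM, 94.8 ± 12.5 TPM in SCC25 and 19.2 ± 2.37 TPM in CAL27. In A253 the order went on with TIMP2 (8.98 TPM), MMP10 (6.86), MMP2 (2.95), MMP7 (1.10) and MMP9 (0.208), each apart from the next. In SCC25 it went on with MMP2 (41.9 TPM), TIMP2 (25.2), MMP1 (14.5), MMP7 (8.04), MMP3 (5.70) and MMP9 (2.74), again each apart from the next. In CAL27 it went on with TIMP2 (11.3 TPM), then MMP1 (9.02) and MMP7 (9.01), whose libraries overlapped, then MMP10 (2.43), MMP3 (1.12) and MMP2 (0.373). A gene was at 0 in all control libraries of each line: MMP3 in A253, MMP10 in SCC25 and MMP9 in CAL27. Counts came in a separate table for each line, and whether the lines were sequenced together is not given in the sources used here. Line and experiment therefore cannot be told apart, and the levels are given without a test.

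MMP13, collagenase-3, which cuts type II collagen and other fibrillar collagens, had the highest fold change of the tested members in SCC25 and in CAL27 with both hairpins averaged. In SCC25 it reached 2191 and 1935 CPM in overexpressing cells, against 142 and 124 CPM in control cells, a 15.5-fold rise (log2 change 3.96, SE 0.07, adjusted p = 1.18e-21). In A253 it reached 239.6, 254 and 286 CPM in overexpressing cells, against 64.6, 61.9 and 64.1 CPM in control cells, a 4.09-fold rise (log2 change 2.03, SE 0.07, adjusted p = 1.11e-11). The groups lay far apart in both lines. In CAL27, where EHF was lowered, MMP13 was higher as well: 81.6 and 90.4 CPM with sh 64, 112 and 181 CPM with sh 65, and 24.5 and 30.0 CPM in control cells. All 4 knockdown libraries exceeded both control libraries, the second sh 65 library by the widest margin. The rise was 4.03-fold with both hairpins averaged (log2 change 2.01, SE 0.27, adjusted p = 0.0145), 3.09-fold for sh 64 (adjusted p = 0.0374) and 5.27-fold for sh 65 (adjusted p = 0.0134). The sign was the same in every alternative, but with CAL27 control replicate 1 left out the adjusted p for the averaged hairpins was 0.108, and with control replicate 2 left out it was 0.0934. The call for sh 64 was also lost when either of its own libraries was left out (adjusted p = 0.104 without replicate 1 and 0.0882 without replicate 2), when either control was left out (0.179 without replicate 1 and 0.145 without replicate 2) and with no filter on low counts (0.057), and that for sh 65 when either control was left out (0.0889 without replicate 1 and 0.0799 without replicate 2). In bulk RNA, a larger share of cells that transcribe MMP13 and more transcript per cell cannot be told apart.

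The rise of MMP13 was larger in SCC25 than in A253. The difference between the effects, tested as the line by treatment interaction over all 10 libraries of the pair, where 5.63% of 15460 genes were called, was 1.91 on the log2 scale (SE 0.11, adjusted p = 9.93e-10), and it passed in all 15 alternatives. EHF differed the other way: its own rise in SCC25 was smaller than in A253 by 2.05 on the log2 scale, the interaction being -2.05 (SE 0.11, adjusted p = 5.56e-10). Between the hairpins, where 5.34% of genes were called, MMP13 was 1.70-fold higher with sh 65 than with sh 64, a difference that did not pass (log2 difference 0.77, 95% interval 0.02 to 1.52, adjusted p = 0.266). It did pass in 3 of 10 alternatives, namely the replicate block and both fits that left a lone sh 65 library. Those fits cannot measure the spread between the sh 65 libraries. Their log2 differences were 1.08 without sh 65 replicate 1 and 0.39 without sh 65 replicate 2.

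**Figure D2:**
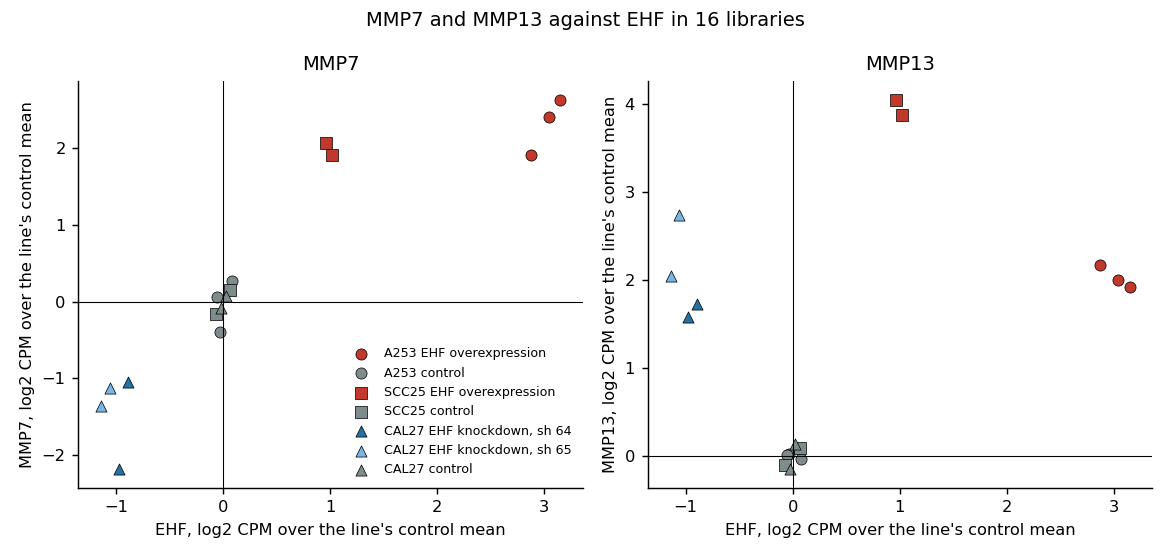
MMP7 (left) and MMP13 (right) against EHF in 16 libraries, each as the log2 ratio of its CPM to the mean of its line's control libraries. MMP7 lies only at the upper right, at the lower left and around the origin, at 1.91 to 2.63 in overexpressing A253, 1.91 to 2.06 in overexpressing SCC25 and -2.18 to -1.05 in CAL27 knockdown cells. MMP13 lies above its controls on both sides, at 1.58 to 2.73 in the knockdown libraries.

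MMP7, matrilysin, is a small MMP without the hemopexin domain that sheds cell surface proteins and activates other proenzymes. In A253 it stood at 3.77, 3.23 and 2.28 CPM in overexpressing cells, against 0.460, 0.731 and 0.631 CPM in control cells, a 5.08-fold rise (log2 change 2.34, SE 0.28, adjusted p = 4.06e-05). These are low levels, with 53, 58 and 31 counts in overexpressing libraries and 8, 13 and 7 counts in control libraries, but the groups did not overlap. In SCC25 it reached 19.3 and 17.4 CPM in overexpressing cells and 5.13 and 4.12 CPM in control cells, a 3.92-fold rise (log2 change 1.97, SE 0.14, adjusted p = 9.88e-11). In CAL27 it fell, with 1.16 and 2.55 CPM for sh 64 and 2.05 and 2.42 CPM for sh 65, against 4.98 and 5.56 CPM in control cells. All 4 knockdown libraries lay below both controls. The fall was 2.74-fold with both hairpins averaged (log2 change -1.46, SE 0.25, adjusted p = 0.00046), 3.16-fold for sh 64 (adjusted p = 0.00126) and 2.39-fold for sh 65 (adjusted p = 0.00741). The calls in A253, in SCC25 and for the averaged hairpins passed in every alternative. That for sh 64 was lost without its replicate 1 (log2 change -1.06, adjusted p = 0.0867), and that for sh 65 in DESeq2 (adjusted p = 0.0868) and without control replicate 2 (adjusted p = 0.0852). The effects in SCC25 and A253 differed by -0.38 on the log2 scale (95% interval -1.08 to 0.32, adjusted p = 0.597). EHF rose by a smaller fold in SCC25, from 440 to 876 CPM on average, against 86.4 to 703 CPM in A253.

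The 250 bases before the transcription start of MMP7 are shown because it is the member that moved with EHF in every line, and those of MMP10 because it lies in the same gene cluster and did not pass the test against control in A253 or CAL27. Promoter sequences for 4 of the 10 members, MMP7, MMP10, MMP14 and TIMP1, were found in the RefSeq promoter set on GRCh38.p14. The strand shown is that of the gene, at chr11:102530748-102530997, minus strand, for MMP7 and at chr11:102780629-102780878, minus strand, for MMP10. Capitals mark the matches described below.
MMP7: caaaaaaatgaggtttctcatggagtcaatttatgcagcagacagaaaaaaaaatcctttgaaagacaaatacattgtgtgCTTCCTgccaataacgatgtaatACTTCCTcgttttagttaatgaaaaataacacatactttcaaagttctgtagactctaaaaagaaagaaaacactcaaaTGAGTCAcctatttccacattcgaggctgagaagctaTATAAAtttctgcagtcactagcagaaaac
MMP10: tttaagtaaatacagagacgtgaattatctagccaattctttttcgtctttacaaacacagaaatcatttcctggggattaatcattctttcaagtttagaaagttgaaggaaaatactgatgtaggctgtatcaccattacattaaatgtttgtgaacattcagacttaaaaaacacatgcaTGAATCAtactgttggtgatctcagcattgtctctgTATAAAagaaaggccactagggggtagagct
Matches were searched on both strands for AP-1 (TGANTCA), an ETS type motif (GGAAGT), a PEA3 type motif (AGGAAG) and a TATA box (TATAAA), and positions count back from the base before the start, which is -1. Both promoters hold AP-1 letters at -67 to -61, which occur in 6.57% of 35116 promoters of this length, and TATA box letters, at -30 to -25 in MMP7 and -31 to -26 in MMP10, which occur in 10.7%. MMP7 alone of the 2 holds the ETS type letters, at -146 to -141 on the opposite strand, present in 19.5% of promoters. It also holds PEA3 type letters at -169 to -164 and at -145 to -140 on the opposite strand, the second of which overlaps the ETS type match. The first 4 letters of the ETS type motif, GGAA, were not searched alone or set in capitals, and they occur in both promoters. PEA3 type letters occur in 28.7% of promoters, and the TIMP1 promoter holds them at -87 to -82, while the MMP14 window holds none of the 4 motifs. These matches describe letters only, and binding of EHF was not analysed here.

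MMP1, the interstitial collagenase that cuts type I and type III collagen, rose in SCC25, where it was at 21.0 and 23.8 CPM in overexpressing cells and 15.7 and 15.1 CPM in control cells (1.47-fold, adjusted p = 0.000251). In A253 it was at 39.8, 40.7 and 41.4 CPM in overexpressing cells and 44.3, 41.5 and 55.1 CPM in control cells, and the change did not pass (log2 change -0.20, adjusted p = 0.251). The effects of the lines differed by 0.74 on the log2 scale (SE 0.15, adjusted p = 0.00604), a call that was lost when SCC25 overexpression replicate 2 was left out (adjusted p = 0.068). In CAL27 MMP1 was at 11.4 and 13.0 CPM with sh 64, 20.7 and 34.3 CPM with sh 65 and 7.63 and 11.8 CPM in control cells. It rose with sh 65, where both libraries exceeded the controls (2.69-fold, adjusted p = 0.0122). With sh 64 its libraries overlapped those of control cells (1.19-fold, adjusted p = 0.643). With both hairpins averaged it did not pass (log2 change 0.84, adjusted p = 0.0563), but 7 of 11 alternatives put it past the threshold. The test of sh 65 against sh 64 itself gave a log2 difference of 1.18 (95% interval 0.52 to 1.83, adjusted p = 0.0602), and 7 of 10 alternatives put it past the threshold. Both tallies include fits that left a lone library in a group, whose spread those fits cannot measure.

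MMP2, gelatinase A, which cuts denatured collagen and basement membrane type IV collagen, rose in CAL27 knockdown cells: 2.70 and 3.26 CPM with sh 64, 1.64 and 1.57 CPM with sh 65, and 0.442 and 1.06 CPM in control cells. The rise was 2.53-fold with both hairpins averaged (adjusted p = 0.0126) and 3.40-fold for sh 64 (adjusted p = 0.00375), while sh 65 alone did not pass (1.88-fold, adjusted p = 0.176). Without control replicate 1, the lower of the 2 controls, the averaged change had an adjusted p of 0.137 and a log2 value of 1.02, against 1.34 with all libraries. Without control replicate 2, the higher of them, the log2 change was 2.26 with both hairpins averaged, 2.69 for sh 64, against 1.77 with all libraries, and 1.83 for sh 65, which still did not pass (adjusted p = 0.124). The hairpins were not called different (log2 difference -0.85, 95% interval -1.63 to -0.08, adjusted p = 0.221). In SCC25, where MMP2 was far more abundant, it stood at 93.0 and 95.0 CPM in overexpressing cells and 87.5 and 78.3 CPM in control cells, a 1.13-fold rise (adjusted p = 0.0313) that failed the threshold in 5 of 9 alternatives. Among these were the fits without overexpression replicate 1 (adjusted p = 0.0848), without overexpression replicate 2 (0.213) and without control replicate 2 (0.282). In A253 it stood at 4.84, 4.51 and 4.04 CPM in overexpressing cells, all below the 5.18, 6.19 and 5.50 CPM of control cells, and did not pass (log2 change -0.33, adjusted p = 0.212). The difference between the lines' effects was 0.50 on the log2 scale (adjusted p = 0.047), and 9 of 15 alternatives left it short of the threshold, among them the fits without A253 overexpression replicate 2 (adjusted p = 0.0686) or 3 (0.128), A253 control replicate 2 (0.135) or 3 (0.0578), SCC25 overexpression replicate 1 (0.113) or 2 (0.142), or SCC25 control replicate 2 (0.189).

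Markers of fibroblasts, a usual source of MMP2 in tissue, were set beside these values. The summed level of 8 fibroblast markers (COL1A1, COL1A2, COL3A1, DCN, LUM, PDGFRA, PDGFRB and THY1) was 14.3 to 16.7 CPM with sh 64, 8.73 to 9.32 CPM with sh 65 and 8.28 to 9.07 CPM in CAL27 control cells. Of the 3 tested in CAL27, LUM, a small proteoglycan, rose with sh 64 and none was called with sh 65, and THY1 was at 0 in the libraries of both hairpins. LUM made up most of the sh 64 sum, averaging 9.74 CPM with sh 64 and 3.24 CPM in control cells. Other markers went both ways, with COL1A1 at 1.81 CPM with sh 64 and 2.74 CPM in control cells, and COL1A2 at 2.36 and 1.66 CPM. In SCC25 the sum was 109 to 111 CPM in overexpressing and 88.9 to 99.6 CPM in control cells, with 2 of 6 tested markers higher and 1 lower and none at 0. In A253 it was 9.04 to 10.0 CPM in overexpressing and 11.8 to 13.3 CPM in control cells, with 1 of 3 tested markers lower, and COL1A2, PDGFRB and THY1 at 0 in the control cells. The part of these markers in the MMP2 values was not tested.

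MMP9, gelatinase B, was barely detected outside SCC25. It had 5, 1 and 5 counts in overexpressing and 4, 4 and 3 counts in control A253 libraries, and in CAL27 it had 3 counts over the 4 knockdown libraries and 0 in the control libraries, so neither line allowed a test. In SCC25 it stood at 2.83 and 2.79 CPM in overexpressing cells and 2.84 and 3.79 CPM in control cells, and did not pass (log2 change -0.23, 95% interval -0.71 to 0.25, adjusted p = 0.532).

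The stromelysins share the substrates fibronectin, laminin and proteoglycans, and MMP3 also activates proMMP1. MMP3 was measurable in SCC25, at 4.24 and 5.39 CPM in overexpressing cells and 6.30 and 4.40 CPM in control cells, with overlapping groups (log2 change -0.13, 95% interval -0.54 to 0.27, adjusted p = 0.683). In CAL27 it had 8 and 2 counts with sh 64, 5 and 5 with sh 65 and 11 and 18 in control cells, under the filter for testing. The ratio of the library-scaled sums over both hairpins was 0.523 with a 95% interval of 0.281 to 0.958 that covers counting error only. In A253 it had 2 counts over the overexpressing libraries and 0 in the control libraries. MMP10 stood at 6.12, 5.79 and 6.91 CPM in overexpressing A253 cells and 5.58, 5.91 and 6.49 CPM in control cells, an overlap of groups (log2 change 0.07, 95% interval -0.21 to 0.35, adjusted p = 0.864). In SCC25 its only counts were 5 in overexpression replicate 2, and the other 3 libraries had 0.

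MMP10 was the member called different between the CAL27 hairpins. It stood at 2.98 and 4.72 CPM with sh 65 and at 1.78 and 0.991 CPM with sh 64, with 2.54 and 1.92 CPM in control cells between them. The sh 65 libraries were thus above, and the sh 64 libraries below, both control libraries. The difference of sh 65 against sh 64 was 2.56-fold (log2 difference 1.35, SE 0.36, adjusted p = 0.0357), while neither hairpin passed against control (sh 65 1.77-fold, adjusted p = 0.0981, sh 64 log2 change -0.53, adjusted p = 0.377). It lost the call without sh 64 replicate 1 (adjusted p = 0.0946), without sh 64 replicate 2 (0.18) and without sh 65 replicate 2 (0.187). EHF itself was 1.12-fold lower with sh 65 than with sh 64 and was not called different (log2 difference -0.16, 95% interval -0.31 to -0.01, adjusted p = 0.230).

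MMP14 was called in SCC25. There it stood at 605 and 654 CPM in overexpressing cells and 517 and 525 CPM in control cells, a 1.21-fold rise (adjusted p = 0.000475) that was short of the threshold without overexpression replicate 2 (adjusted p = 0.0571). In A253 the groups overlapped, at 137 to 149 CPM in overexpressing and 122 to 143 CPM in control cells (log2 change 0.07, 95% interval -0.08 to 0.22, adjusted p = 0.678). In CAL27 all knockdown libraries, at 65.7 to 76.9 CPM, lay below the controls at 81.4 and 82.5 CPM, with an adjusted p just over the threshold (log2 change -0.22, adjusted p = 0.0501). It was called lower in 4 of 11 alternatives, among them no filter on low counts (adjusted p = 0.0321) and a replicate block (0.0167). The others were the fits without sh 64 replicate 1 or sh 65 replicate 2, which left a lone library in a group. With sh 65 alone it did not pass (log2 change -0.25, adjusted p = 0.0689) but did in 3 of 10 alternatives.

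**Figure D3:**
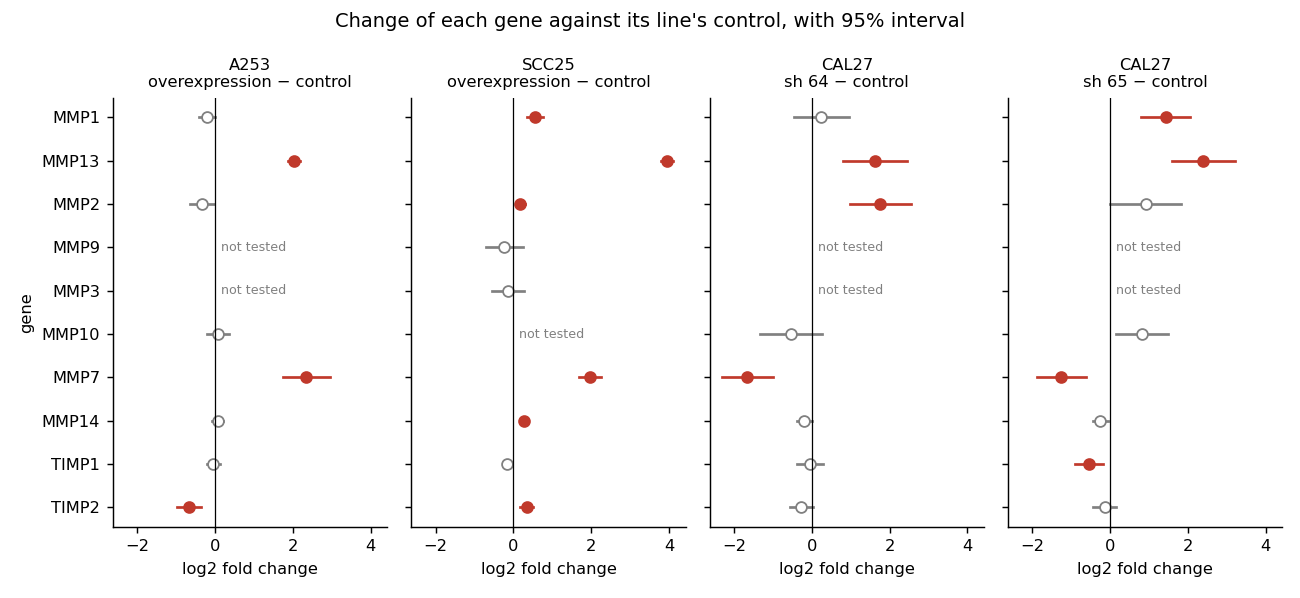
Log2 fold change of each gene against its line's control in A253, SCC25 and the 2 CAL27 hairpins, with its 95% interval. Filled red points passed an adjusted p of 0.05 and open grey points did not. MMP13 is to the right of 0 in all 4 panels, and MMP7 is to the right in both overexpression panels and to the left in both knockdown panels.

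TIMP2 changed in opposite directions in the 2 overexpressing lines. In A253 it was at 12.7, 8.63 and 9.40 CPM in overexpressing cells, all below the 14.4, 17.6 and 16.8 CPM of control cells (1.59-fold lower, log2 change -0.67, SE 0.14, adjusted p = 0.00757), a call kept in 10 of 11 alternatives. SCC25 cells had 65.7 and 55.3 CPM when overexpressing, above the 49.5 and 45.4 CPM of control cells (1.26-fold, log2 change 0.34, SE 0.08, adjusted p = 0.0017), a call that was lost without overexpression replicate 1 (adjusted p = 0.0964). The difference between the lines' effects was 1.00 on the log2 scale (SE 0.19, adjusted p = 0.00894), with an adjusted p of 0.0531 when SCC25 control replicate 2 was left out. In CAL27 TIMP2 was at 15.9 and 20.5 CPM with sh 64, 18.0 and 21.6 CPM with sh 65 and 21.7 and 21.6 CPM in control cells, and did not pass (log2 change -0.20, adjusted p = 0.26).

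TIMP1, which also acts as a growth factor for some cells, did not pass in A253, where it stood at 30.4 to 33.3 CPM in overexpressing and 31.0 to 34.5 CPM in control cells. In SCC25 it was at 74.8 and 71.1 CPM in overexpressing cells, below the 79.3 and 83.2 CPM of control cells, with an adjusted p of 0.0551 (log2 change -0.16). With sh 65 it was at 8.42 and 9.81 CPM, below both controls at 11.5 and 14.5 CPM, a 1.46-fold fall (adjusted p = 0.0367). The call was lost in 4 of 10 alternatives, namely DESeq2 (adjusted p = 0.22), the fit of the 2 groups alone (0.0518) and the fits without sh 65 replicate 1 (0.161) or control replicate 2 (0.445). With sh 64 it was at 13.5 and 11.7 CPM, within the range of the controls (log2 change -0.05, adjusted p = 0.862), and the difference of sh 65 against sh 64 did not pass (log2 difference -0.49, adjusted p = 0.126).

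Per transcript length, the ratio of the summed level of the 8 MMP genes to that of the 2 TIMP genes was higher in every EHF-changed library than in any control library of its line. MMP13 exceeded MMP14 in all of them, with 1.38 to 4.72 times its TPM, and was below it in all controls, with 0.307 to 0.684 times its TPM. These sums are descriptions and were not tested. In A253 the MMP sum was 306 to 335 TPM in overexpressing and 176 to 185 TPM in control cells, and its ratio to the TIMP sum was 4.21 to 4.59 in overexpressing and 2.14 to 2.40 in control cells. In SCC25 the MMP sum was 2009 and 1865 TPM in overexpressing and 474 and 433 TPM in control cells, with ratios of 10.4 and 10.3 in overexpressing and 2.38 and 2.22 in control cells. In CAL27 the ratio was 3.16 and 3.36 with sh 64, 5.31 and 6.54 with sh 65 and 2.31 and 2.15 in control cells. MMP13 gave 56.8% to 61.4% of the MMP sum in overexpressing A253 cells, against 25.8% to 26.2% in control cells. In SCC25 its share was 78.1% and 74.7% in overexpressing and 21.9% and 19.9% in control cells, and in CAL27 it was 49.7% to 61.3% in knockdown and 21.1% to 23.7% in control cells. The ratio of MMP to TIMP1 and TIMP2 transcripts lay between 2.14 and 2.40 in all 7 control libraries. The summed levels differed several-fold between the lines. TIMP3, a further inhibitor, was not in the sums, and counting it would lower the ratios, most in SCC25. There it averaged 164 TPM in control and 252.7 TPM in overexpressing cells, beside 172 and 156 TPM for TIMP1. In control cells of A253 and CAL27 TIMP3 averaged 5.36 and 1.14 TPM. MMP genes outside the 8 were not in the sums either, and counting them would raise the ratios. Among these, MMP28 averaged 91.8 TPM in SCC25, 18.0 TPM in A253 and 5.55 TPM in CAL27 control cells. Ratios with TIMP3 or MMP28 were not computed, so the narrow range holds for these 8 MMP genes with TIMP1 and TIMP2 only.

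**Figure D4:**
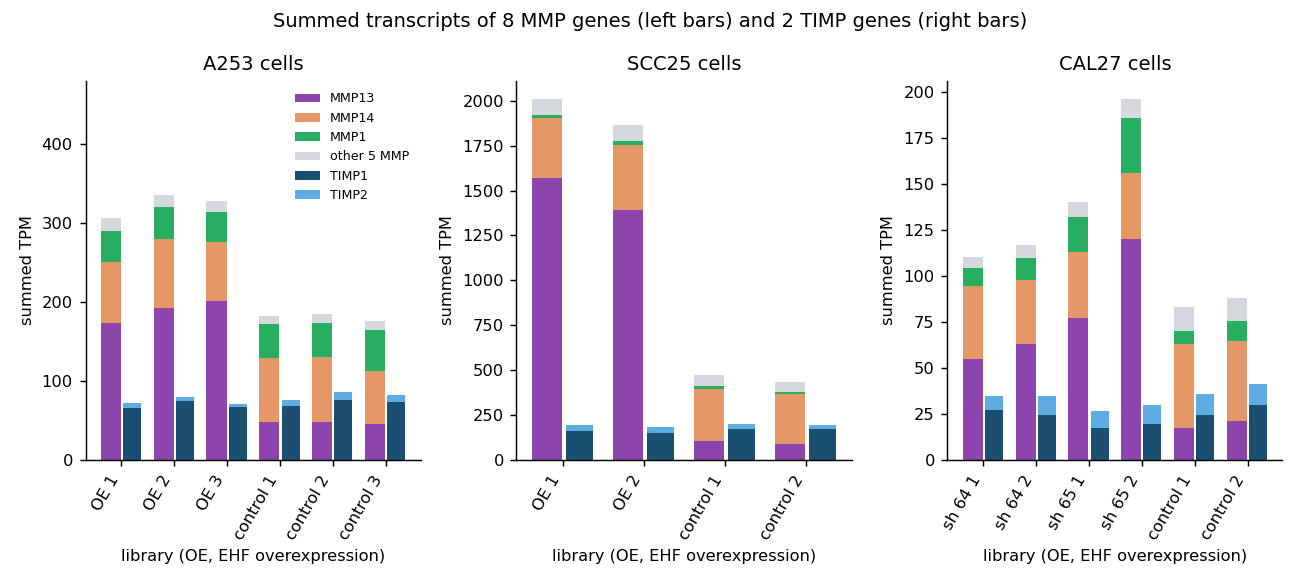
Summed TPM of the 8 MMP genes (left bar of each pair, split into MMP13, MMP14, MMP1 and the other 5) and of TIMP1 and TIMP2 (right bar) in every library, with a separate linear axis from 0 for each line. The purple MMP13 part makes up 49.7% to 78.1% of the MMP bars in overexpressing and knockdown libraries, and the TIMP bars span 71.4 to 86.3 TPM in A253, 182 to 199 TPM in SCC25 and 26.4 to 41.1 TPM in CAL27.

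Members MMP7, MMP10, MMP1, MMP3 and MMP13 lie in a cluster on chromosome 11, and their order with the neighbouring genes was taken from RefSeq (GRCh38.p14, order only). From one end it runs BIRC3, BIRC2, TMEM123, MMP7, MMP20, MMP27, MMP8, MMP10, MMP1, MMP3, MMP12, MMP13, DCUN1D5 and DYNC2H1. MMP7 and MMP13, toward opposite ends of the MMP genes, were called in all 3 lines. Between them, MMP10 and MMP1 were not called in A253 or with both CAL27 hairpins averaged. MMP1 was called higher in SCC25 (log2 change 0.55, adjusted p = 0.000251) and with sh 65 alone (1.43, adjusted p = 0.0122). MMP10 had too few counts for a test in SCC25. MMP20, MMP27 and MMP8 had too few counts for a test in any line, and MMP12 could be tested in SCC25 only (log2 change 0.78, adjusted p = 0.0852). Of the flanking genes, BIRC3, an inhibitor of apoptosis, rose in A253 (log2 change 0.99, adjusted p = 1.38e-05) together with TMEM123 (log2 change 0.26, adjusted p = 0.00986). DCUN1D5 fell in SCC25 by 0.22 on the log2 scale (adjusted p = 0.00564), and DYNC2H1 rose in CAL27 by 0.25 (adjusted p = 0.0159). No other flanking gene was called in these 3 comparisons. The MMP1 and MMP3 genes overlap the pseudogene WTAPP1, which had at most 16 counts in a library, and TIMP1 overlaps SYN1, which had at most 4, and the counting strand is not stated.

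**Figure D5:**
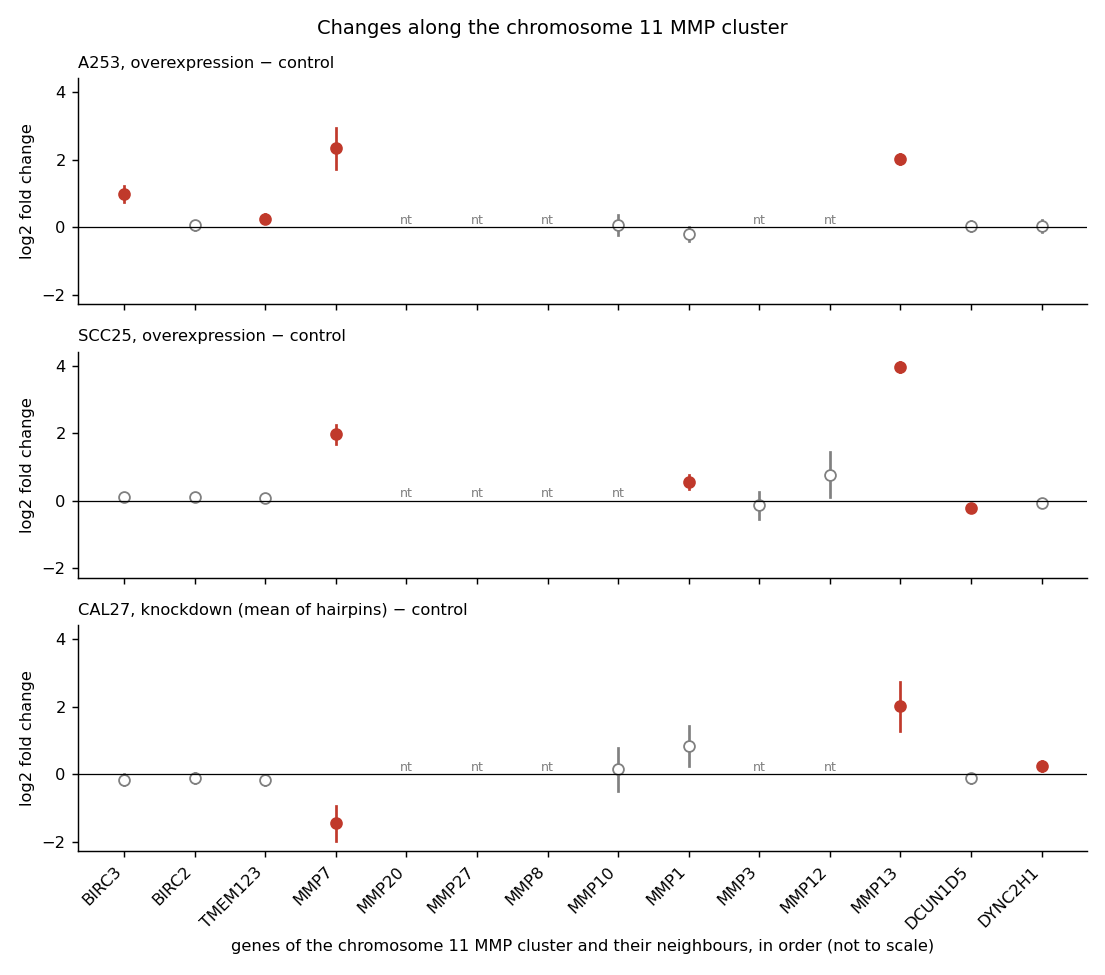
Log2 fold change of the genes of the chromosome 11 MMP cluster and their neighbours, in gene order and not to scale, for overexpression in A253 and SCC25 and for the mean of both hairpins in CAL27. Lines are 95% intervals, filled red points passed an adjusted p of 0.05, and nt marks genes with too few counts to be tested. MMP13 is above 0 in all 3 panels and MMP7 changes sign in CAL27.

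Genes whose profile was most like that of MMP7, MMP13, MMP2 and TIMP2, the members called in at least 2 of the comparisons with control in A253, in SCC25 and in CAL27 with both hairpins averaged, were ranked by Pearson's r over the 16 libraries after each line's control mean had been subtracted from the log2 CPM of 12658 genes. For MMP7 they were ALOX5, the arachidonate 5-lipoxygenase (r = 0.97), BOK, a BCL2 family member (r = 0.97), and MTUS1, a microtubule-associated protein (r = 0.96), all higher in both overexpressing lines and lower in CAL27 knockdown cells. For MMP13 they included the interferon-induced IFIT2 (r = 0.95). Like MMP13, it was called higher in all 3 lines, by 0.35 in A253, 0.64 in SCC25 and 0.43 in CAL27 on the log2 scale. For MMP2 they were ARHGEF37 (r = 0.98), MUT (r = 0.97) and PLD1 (r = 0.96), and for TIMP2 they were SLC25A43 (r = 0.87), MXRA7 (r = 0.87) and ZNF623 (r = 0.86). The 16 points share lines, groups and library depth, and r is given as a description. Directions of change shared with a member follow from this ranking and are no further evidence of a link.

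Other genes of the MMP system were counted from fixed lists, and the counts stand against the 7.97% of all tested genes called in A253, 23.9% in SCC25 and 18.8% in CAL27 with both hairpins averaged. Of 15 other MMP genes, 7 were tested in A253, where MMP16, a membrane-type enzyme, fell by 0.53 on the log2 scale (adjusted p = 0.0214). Of the 8 tested in SCC25, MMP15, another membrane-type enzyme, rose by 0.43 (adjusted p = 0.0045). Of the 5 tested in CAL27, MMP28, epilysin of keratinocytes, rose, with 16.5 CPM for sh 64 and 14.3 CPM for sh 65, against 8.24 CPM in control cells (log2 change 0.90 with both averaged, adjusted p = 0.000104). TIMP3, the inhibitor that is bound to the matrix, rose in SCC25 to 710 ± 11.4 CPM in overexpressing cells, against 463 ± 37.5 CPM in control cells (log2 change 0.62, adjusted p = 1.03e-08). It rose in CAL27, with 8.55 ± 1.72 CPM for sh 64 and 6.43 ± 0.195 CPM for sh 65, against 3.27 ± 0.239 CPM in control cells (SD, n = 2 each, log2 change 1.14 with both averaged, adjusted p = 0.000493). In A253 it did not pass.

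Of 8 further inhibitors and surface partners, 1 of 6 tested rose in A253, 2 rose and 1 fell of 6 in SCC25, and 2 rose and 1 fell of 6 in CAL27. LCN2, lipocalin-2, which binds MMP9, moved with EHF in all 3 lines. It was at 5.63 ± 0.731 CPM in overexpressing and 0.294 ± 0.243 CPM in control A253 cells (SD, n = 3 each, log2 change 4.08, adjusted p = 1.74e-07), and at 92.4 and 25.2 CPM on average in overexpressing and control SCC25 cells (log2 change 1.87, adjusted p = 1.23e-16). In CAL27 it was at 33.3 CPM with sh 64 and 23.2 CPM with sh 65, against 44.0 CPM in control cells (log2 change -0.68 with both averaged, adjusted p = 5.76e-05).

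Plasmin and kallikreins can activate MMP proenzymes. Of 12 genes of that system, 2 of 10 tested rose and 1 fell in A253, 4 rose and 3 fell of 12 in SCC25, and 3 rose and 4 fell of 11 in CAL27. PLAT, the tissue plasminogen activator, was at 129 ± 11.2 CPM in overexpressing and 21.1 ± 1.95 CPM in control A253 cells (SD, n = 3 each, log2 change 2.61, adjusted p = 5.91e-12). KLK7, a chymotrypsin-like kallikrein of skin, rose with sh 65 (log2 change 1.40, adjusted p = 0.00121) and SERPINB2, an inhibitor of urokinase, rose with sh 64 (log2 change 1.53, adjusted p = 8.79e-06) but fell with sh 65 (log2 change -1.21, adjusted p = 0.00154), a difference between the hairpins of -2.74 (adjusted p = 1.27e-07). Of 16 ADAM and ADAMTS proteases, 2 of 13 tested rose in A253, 5 rose and 1 fell of 12 in SCC25, and 1 rose and 2 fell of 13 in CAL27. ADAM28 was the largest of these in SCC25 (log2 change 1.64, adjusted p = 5.55e-07).

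The proteins that MMPs cut, 21 matrix and basement membrane genes, were also counted. In SCC25 11 of 21 rose and 2 fell, where 23.9% of all genes were called, with a median log2 change of 0.22. In CAL27 1 of 17 tested rose and 9 fell, where 18.8% of all genes were called, with a median of -0.29, among them COL4A1 of the type IV collagen network (log2 change -0.67, adjusted p = 7.12e-06). In A253 1 of 19 tested rose and 2 fell, with a median of -0.06. The gene that rose there was SPP1, osteopontin, which MMPs also cut, with 843 counts in overexpressing and 3 in control libraries, a ratio of 285 with a 95% counting interval of 97.2 to 1384.

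Of 16 AP-1, ETS and RUNX transcription factors that textbook accounts place at MMP promoters, 1 of 14 tested rose and 1 fell in A253, 5 rose and 3 fell of 16 in SCC25, and 5 rose and 4 fell of 15 in CAL27. In CAL27 the largest were ELF3, an epithelial ETS factor, at 65.8 CPM with sh 64, 115 CPM with sh 65 and 38.3 CPM in control cells (log2 change 1.17 with both averaged, adjusted p = 1.35e-06), and FOS, an AP-1 subunit (log2 change 1.06, adjusted p = 0.00865). FOS was called with sh 65 (log2 change 1.37, adjusted p = 0.00343) and not with sh 64. In SCC25 the largest was ETV1, a PEA3 factor, at 1.96 CPM in overexpressing and 5.32 CPM in control cells (log2 change -1.47, adjusted p = 3.22e-05). No set test was run on any of these lists.

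Leukocytes, endothelium and myoepithelium also make MMPs, and markers of these cells were measured alongside. The summed level of 8 leukocyte markers was 174 to 189 CPM in overexpressing and 126.5 to 131.5 CPM in control A253 cells, where CD14 and CD68 rose among 3 tested and CD3E and CD163 were among those at 0 in both groups. In SCC25 the sum was 257 to 261 CPM in overexpressing and 251 to 258 CPM in control cells, with CD14 higher among 4 tested, and CD163 at 0 in both groups. In CAL27 it was 44.3 to 45.7 CPM with sh 64, 42.0 to 42.3 CPM with sh 65 and 46.7 to 47.5 CPM in control cells. Of the 4 tested there, CSF1R was called higher with both hairpins averaged (log2 change 0.78) and with sh 64 (1.11), and none was called with sh 65. CD68 made up most of each leukocyte sum. It averaged 170 CPM in overexpressing and 123 CPM in control A253 cells, and 216 and 221 CPM in SCC25. In CAL27 it averaged 31.4 CPM over both hairpins and 36.9 CPM in control cells. PTPRC averaged 0.135 and 0.143 CPM in overexpressing and control A253 cells, and 0.341 and 0.166 CPM in SCC25. In CAL27 PTPRC averaged 0.161 CPM over both hairpins and 0.207 CPM in control cells. The 4 endothelial markers summed to 1.84 to 2.85 CPM in overexpressing and 1.84 to 2.44 CPM in control A253 cells, with none called of 2 tested. In SCC25 they summed to 9.52 to 9.72 CPM in overexpressing and 6.83 to 8.03 CPM in control cells, with none called of 3 tested and CDH5 at 0 in the control cells. In CAL27 the sum was 4.17 to 5.24 CPM with sh 64, 4.11 to 6.05 CPM with sh 65 and 6.51 to 7.52 CPM in control cells, where CDH5 was called lower of 2 tested with both hairpins averaged and with sh 64, and none with sh 65. The 5 myoepithelial markers summed to 50.4 to 56.3 CPM in overexpressing and 70.4 to 72.9 CPM in control A253 cells, 218 to 233 CPM in overexpressing and 169 CPM in both control SCC25 libraries, and 112 to 121 CPM with sh 64, 79.7 to 89.4 CPM with sh 65 and 102 to 107 CPM in control CAL27 cells. CALD1 made up most of each of these sums. It averaged 49.6 CPM in overexpressing and 67.6 CPM in control A253 cells, and 187 and 145 CPM in SCC25. In CAL27 it averaged 112 CPM with sh 64, 80.2 CPM with sh 65 and 100 CPM in control cells. Of 4 markers tested in each line, CALD1 alone was called in A253, and 2 were called higher in SCC25. In CAL27 1 was called lower with both hairpins averaged, 2 with sh 65 and none with sh 64. The epithelial markers summed to 10401 to 11245 CPM with sh 64, 11099 to 12478 CPM with sh 65 and 7491 to 7829 CPM in control CAL27 cells, 5 of 7 being called higher with each hairpin. In SCC25 they summed to 16423 to 16995 CPM in overexpressing and 15811 to 16701 CPM in control cells, with 3 of 7 called higher, and in A253, whose sums are given above, 3 of 7 were called lower. The part of these markers in the MMP and TIMP changes was not tested.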

How the data were processed

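RNA of 16 libraries was measured by TruSeq mRNA sequencing, per the labels. The authors deposited raw read counts per gene symbol, 1 table per line, and TPM for the same genes. The submitters' processing notes name TopHat2 2.1.1, Bowtie 1.1.1, featureCounts 1.5.3, DESeq2 1.12.4 and hg19, without roles, and annotation and counting strand are not given in the sources used here. The CAL27 counts came with 696 altered gene names, none of them a member's, and names were taken by position from the A253 table. The CAL27 count and TPM tables swap the names sh 64 and sh 65. For the libraries named sh 64 in the counts, the TPM table also gives the replicate numbers 1 and 2 the other way round. Names and replicate numbers of the count table are used, and the labels do not tie either hairpin to knockdown 1 or 2. The deposited SCC25 TPM table was not used, because its header was shifted and its values were not TPM. TPM was recomputed in all lines from counts and the lengths implied by the deposited counts and TPM of A253 and CAL27, which were equal within 0.01 (log2) for 18450 of 18450 genes.

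Counts were tested with edgeR 4.0.16 in R 4.3.3 (filterByExpr, TMM, robust quasi-likelihood fit per line with all CAL27 groups in 1 fit, 2-sided p, Benjamini-Hochberg over all genes tested, threshold 0.05), and CPM are relative to TMM-scaled totals. The script was tested on simulated data. Alternatives were RLE factors, library totals only, no low-count filter, a replicate block, DESeq2 1.42.0, leaving out each library, and for each hairpin a fit of the compared groups alone. Replicates differed by more than sampling noise in all 11 pairs (chi-square per degree of freedom 2.48 to 16.6). Depth limits genes with few counts, and intervals on counts cover counting error only. Named genes were the 10 members, from each comparison the 3 list genes with the largest called change, called genes of the MMP and TIMP families, and the 3 genes most like each member called in at least 2 of A253, SCC25 and CAL27 with both hairpins averaged. COL4A1, fibroblast, leukocyte, endothelial and chromosome 11 flanking genes, and a few list genes shown in a second comparison, were named after their values were seen. The members and lists were chosen with earlier results of these data known. The EHF ChIP and input samples were not used here. Some genes that these rules or lists name are not reported here.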

Additional observations from a re-analysis of the deposited data

Results flagged for a closer look

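Effects of EHF overexpression on 4 of the 10 genes differed between SCC25 and A253 by the interaction test in edgeR, where 5.63% of 15460 genes were called. For MMP13 the SCC25 effect exceeded the A253 effect by 1.91 on the log2 scale (adjusted p = 9.93e-10), with rises of 15.5-fold in SCC25 and 4.09-fold in A253, and it was higher in 2 of 2 and 3 of 3 overexpressing libraries than in any control of its line. For TIMP2 the difference was 1.00 (adjusted p = 0.00894), with log2 changes of 0.34 in SCC25 and -0.67 in A253, and all overexpressing libraries of a line lay on the same side of its controls. For MMP1 it was 0.74 (adjusted p = 0.00604), with log2 changes of 0.55 in SCC25 and -0.20 in A253, and for MMP2 it was 0.50 (adjusted p = 0.047), with log2 changes of 0.18 in SCC25 and -0.33 in A253. Neither MMP1 nor MMP2 passed within A253. The MMP2 difference missed the threshold in 9 of 15 alternatives, and those of MMP1 and TIMP2 in 1 of 15 each.

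MMP10 differed between the CAL27 hairpins by 1.35 on the log2 scale (adjusted p = 0.0357), with both sh 65 libraries above both sh 64 libraries.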

How the results depend on the processing

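Over all comparisons, 641 alternative values were computed for the log2 changes of the members. Of these 560 kept their direction and their side of the threshold, 39 lost the threshold, 28 gained it and 14 changed sign, all 14 of them for changes that had not passed. With library totals only, 2 members were called between sh 65 and sh 64, against 1 in the edgeR fit as reported. Without the low-count filter 5 members were called for the averaged CAL27 hairpins, against 3, and 2 between the hairpins. With only the 2 compared groups in the fit, 2 were called between the hairpins. DESeq2 called 2 members for sh 65, against 4. Over all genes DESeq2 called 1540 in SCC25 (3370 in edgeR), 1461 for the averaged hairpins (2560), 1191 for sh 64 (2133), 1170 for sh 65 (1994), 441 between the hairpins (728) and 527 in the interaction (871). The cause was not tested.

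Whether replicate numbers paired the libraries could not be settled. Correlations of deviations between libraries of the same number ran from -0.325 to 0.341, with no reference value to judge them by. A replicate block left 5 members called for the averaged hairpins, 3 between the hairpins, with 1260 genes in all, and 2 in A253, where TIMP2 had an adjusted p of 0.0688. Between the hairpins it gave log2 differences of 1.12 for MMP1 and 0.73 for MMP13 (adjusted p = 0.000585), both past the threshold, and MMP14 was called lower with the averaged hairpins (adjusted p = 0.0167) and with sh 65 (0.0258).

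Leaving out 1 library at a time gave 1 to 5 called members for the averaged hairpins, 1 to 2 for sh 64, 1 to 4 for sh 65, 0 to 3 between the hairpins and 2 to 4 in the interaction. Called genes in all then numbered 658 to 1036 in A253, 2124 to 3639 in SCC25, 937 to 3038 for the averaged hairpins, 866 to 1655 for sh 64, 879 to 1990 for sh 65, 263 to 1048 between the hairpins and 318 to 936 in the interaction. Changes that had not passed and changed sign ranged, on the log2 scale, from -0.00108 to 0.12 for MMP10 in A253, -0.36 to 0.15 for MMP3 in SCC25, -0.14 to 0.30 for MMP10 with the averaged hairpins and -0.19 to 0.15 for TIMP1 with sh 64. Between the hairpins they were -0.19 to 0.94 for MMP7, -0.16 to 0.067 for MMP14 and -0.061 to 0.31 for TIMP2. In the interaction they were -0.83 to 0.079 for MMP9 and -0.073 to 5.36 for MMP10, whose counts in SCC25 came from 1 library. With 2 libraries per group in SCC25 and CAL27, a lone library left in a group was assumed to vary like the other groups. Depth limits MMP3, MMP9 and MMP10, which had too few counts for a test in at least 1 line.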

Other observations

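Several basement membrane genes, substrates of the MMPs, were called higher after EHF overexpression in SCC25 and lower after EHF knockdown in CAL27 (mean of both hairpins). They were chosen after their values were seen, by that pattern, so it is no support for it. They were both chains of the type IV collagen heterotrimer, COL4A1 (log2 change 0.41 in SCC25 and -0.67 in CAL27) and COL4A2 (0.48 and -0.46), COL7A1 of the anchoring fibrils (0.22 and -0.38), and the laminin chains LAMA3 (0.22 and -0.30), LAMB3 (0.49 and -0.20) and LAMC1 (0.16 and -0.29). In A253 COL7A1 was called lower, by -0.40, and the other 5 did not pass. LAMB3 averaged 557 CPM with sh 64, 391.8 CPM with sh 65 and 537 CPM in CAL27 control cells, and was called lower with sh 65 (log2 change -0.45) and not with sh 64 (0.05). LAMC1 was likewise called with sh 65 (-0.39) and not with sh 64 (-0.19), while the other 4 were called lower with each hairpin.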
